A study of Canis lupus familiaris with 4 samples.

Results

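Keratin expression was measured in sorted stem-like cells of dog mammary tumour lines, by all array probes of the 8 genes KRT5, KRT7, KRT8, KRT14, KRT15, KRT17, KRT18 and KRT19. Members were probes that were not controls and whose gene name in the scanner files was one of these symbols, or whose description gave it in brackets. The rule found 9 probes for 6 genes, of 43603 probes and 13770 gene symbols on the array. KRT7 and KRT8 had no such probe and were not analysed here. Of the 6 genes, 5 passed the filter on dim signals and were tested: KRT18 and KRT19 of the luminal keratins, and KRT5, KRT14 and KRT15 of the basal keratins.

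The cells came from P114 and CMT-U27, lines established from canine mammary tumours. From each line a Sca1+/EpCAM+/CD44+ fraction had been sorted, and RNA was labelled at day 3, either after co-culture with tumor associated macrophages or after single culture. On each of the 4 arrays, co-culture and single culture of 1 line were hybridised together in Cy3 and Cy5. The dyes were swapped on the other array of that line, so every line and culture had n = 2 channels. The labels call the arrays biological replicates and do not say whether they came from separate cultures or extracts, and their spread may thus be technical. Neither do the labels say whether macrophages were removed before the RNA was made.

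Keratins are the intermediate filament proteins of epithelial cells, and each filament is built of pairs of a type I and a type II keratin. In the mammary gland, KRT8, KRT18, KRT19 and KRT7 are typical of the luminal cells that line the duct, while KRT5, KRT14, KRT15 and KRT17 are typical of the basal and myoepithelial layer. In cultured tumour cells, loss of keratins with gain of the filament protein vimentin is the textbook picture of a mesenchymal state.

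Probes of the tested keratin genes are shown because their sequence decides which transcript part was read. Letters are 5′ to 3′, positions are those of the scanner files on CanFam3.1, and capitals mark AATAAA, the canonical polyadenylation signal, or a stop codon. For KRT15, KRT14 and the brighter KRT5 probe the 3′ part is shown and for the others the whole probe. The dimmer KRT5 probe ends at the stop codon, the KRT18 probe spans it, and the KRT19 probe has no capitals.
KRT15: tatgcAATAAAgaattgcttggccttttgc
KRT14, brighter probe: gcaatcAATAAAgctttattatctcagttg
KRT5, brighter probe: tgactacctccagaatgtgttcAATAAAat
KRT5, dimmer probe: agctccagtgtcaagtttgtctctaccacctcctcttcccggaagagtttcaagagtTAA
KRT18: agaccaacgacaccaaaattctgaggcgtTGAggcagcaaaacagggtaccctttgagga
KRT19: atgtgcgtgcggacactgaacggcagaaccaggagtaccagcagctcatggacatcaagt

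The KRT15 probe lies on chromosome 9 from 21254067 to 21254126, the KRT19 probe on the same chromosome from 21244541 to 21244600, and the KRT18 probe on chromosome 27 from 2189299 to 2189358. The brighter KRT14 probe spans 21194996 to 21195055 on chromosome 9 and shares 51 of its 60 bases with the other KRT14 probe, so these probes are not independent readings. The brighter KRT5 probe spans 2573469 to 2573528 on chromosome 27 and the dimmer one 2573126 to 2573185. AATAAA as printed was found in 4 of the 9 member probes, against 8.67% of all 43603 probes (11.4% with TTTATT, its reverse complement, counted too). The remaining KRT14 member, on chromosome 9 from 21169401 to 21169551, was matched by its description alone. The files name it KRT16, it is called the KRT16-named probe below, and its reading cannot be given to one of these genes.

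Levels are log2 intensities after background correction, loess within arrays and Aquantile between arrays. They are compared for the same probe across channels only, since probes differ in how strongly they bind. One array stood apart. On P114 replicate 1, 89.4% of Cy3 and 91.7% of Cy5 spots were well above background, against 57.9% to 65.7% in the channels of the other arrays. All 9 member probes had 0 saturated spots, and every member probe other than that of KRT17 was well above background in all 8 channels.

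Most of the tested keratins differed between the lines. In single culture, 4 of the 5 tested keratin genes were lower in P114 than in CMT-U27 by limma at an adjusted p under 0.05, and 0 were higher. Over all 28692 tested probes, 8.23% were called lower and 6.97% higher in P114 (15.2% in either direction). The 4 genes were the luminal KRT18 and KRT19 and the basal KRT14 and KRT15. KRT5 did not pass by either probe that carries its name, so the basal keratins were not uniform. The median difference, P114 minus CMT-U27, was -3.13 log2 units over the 2 luminal genes and -2.48 over the 3 basal genes, beside -0.03 over all tested probes. These 2 medians come from so few genes that luminal and basal keratins cannot be ranked against each other.

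KRT19, a type I keratin of simple epithelia and a common luminal marker, showed the widest gap. Its single-culture level was 11.03 and 11.23 on P114 replicates 1 and 2, and 14.76 and 15.33 on CMT-U27 replicates 1 and 2. The groups did not overlap, and the CMT-U27 arrays lay further apart than the P114 arrays. The difference was -3.91 ± 0.51 (SE), or 15.03-fold lower in P114, with a limma adjusted p of 0.00698. In co-culture the levels were 10.89 and 10.96 in P114 against 15.38 and 15.25 in CMT-U27, a difference of -4.39 ± 0.51 (limma adjusted p = 0.00466). Of all tested probes, 0.118% had a lower difference than KRT19 in single culture.

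KRT18, the type I partner of KRT8 in luminal cells, had single-culture levels of 13.35 and 13.26 in P114 and 15.55 and 15.74 in CMT-U27. Replicates of a line lay close together, and the lines were far apart. P114 was lower by a difference of -2.35 ± 0.20 (SE), or 5.08-fold (limma adjusted p = 0.00189). In co-culture P114 stood at 13.02 and 13.06 and CMT-U27 at 15.44 and 15.22, a difference of -2.29 ± 0.20 (limma adjusted p = 0.00196). KRT18 was thus lower in P114 in both cultures by nearly the same amount. For every keratin, both cultures of a line were read on the same arrays, with a correlation within spots of 0.936. The co-culture value is therefore no independent reading of the line difference.

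KRT15, a type I keratin of basal cells and epithelial progenitors, had the smallest standard error of the 5 genes. It stood at 9.68 and 9.82 in P114 single culture and at 12.43 and 12.41 in CMT-U27 single culture. The lines did not overlap, with a difference of -2.67 ± 0.13 (SE), or 6.36-fold lower in P114 (limma adjusted p = 0.0004). In co-culture the P114 levels were 9.70 and 9.57 and the CMT-U27 levels 13.15 and 13.32. The difference there was -3.60 ± 0.13, or 12.1-fold (limma adjusted p = 0.00018).

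KRT14, the type I partner of KRT5 in basal cells, was read by both probes that carry its name. By the brighter probe, single-culture levels were 10.81 and 10.58 in P114 and 13.18 and 13.17 in CMT-U27. P114 was lower by a difference of -2.48 ± 0.34 (SE), or 5.57-fold (limma adjusted p = 0.00809). The dimmer probe gave 9.99 and 9.98 against 13.03 and 12.92, a difference of -2.99 ± 0.32 (limma adjusted p = 0.0038). In co-culture the brighter and the dimmer probe gave differences of -2.74 (limma adjusted p = 0.00567) and -3.55 (limma adjusted p = 0.0022). The KRT16-named probe pointed the same way, at -1.41 in single culture (limma adjusted p = 0.0292) and -1.96 in co-culture (limma adjusted p = 0.0102).

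KRT5, the type II basal keratin that pairs with KRT14, did not follow its partner by the probes that carry its name. Its brighter probe stood at 8.75 and 8.96 in P114 single culture and at 9.12 and 8.95 in CMT-U27 single culture, so the lines overlapped. The difference was -0.18 ± 0.21 (SE), and limma gave an adjusted p of 0.642. In co-culture it stood at 8.49 and 8.16 in P114 and at 9.15 and 9.23 in CMT-U27, a difference of -0.86 ± 0.21 that passed narrowly (limma adjusted p = 0.0465). The dimmer probe gave -0.14 in single culture (limma adjusted p = 0.752) and -0.42 in co-culture (limma adjusted p = 0.3), so the co-culture call rests on 1 of the 2 probes that carry its name. Of the unnamed probes within the KRT5 transcript, 1 was called lower in P114, at -0.68 in single culture (limma adjusted p = 0.0363) and -0.69 in co-culture (limma adjusted p = 0.0344). The other gave -0.20 and -0.60 and was not called (limma adjusted p = 0.613 and 0.137). The co-culture call by the brighter probe also ended with the scanner software's processed signals (limma adjusted p = 0.0537) and with no filter on dim probes (limma adjusted p = 0.0862). In co-culture all 5 tested keratin genes were called lower in P114, against 8.82% of all probes called lower and 6.62% higher (15.4% in either direction).

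KRT17, a keratin of basal cells and skin appendages that is induced by stress, was well above background in both channels of P114 replicate 1 and in 0 of the other 6 channels. That is the array on which nearly all spots were. Its levels ran from 6.90 to 6.99, it was not tested, and no fold is given.

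**Figure D1:**
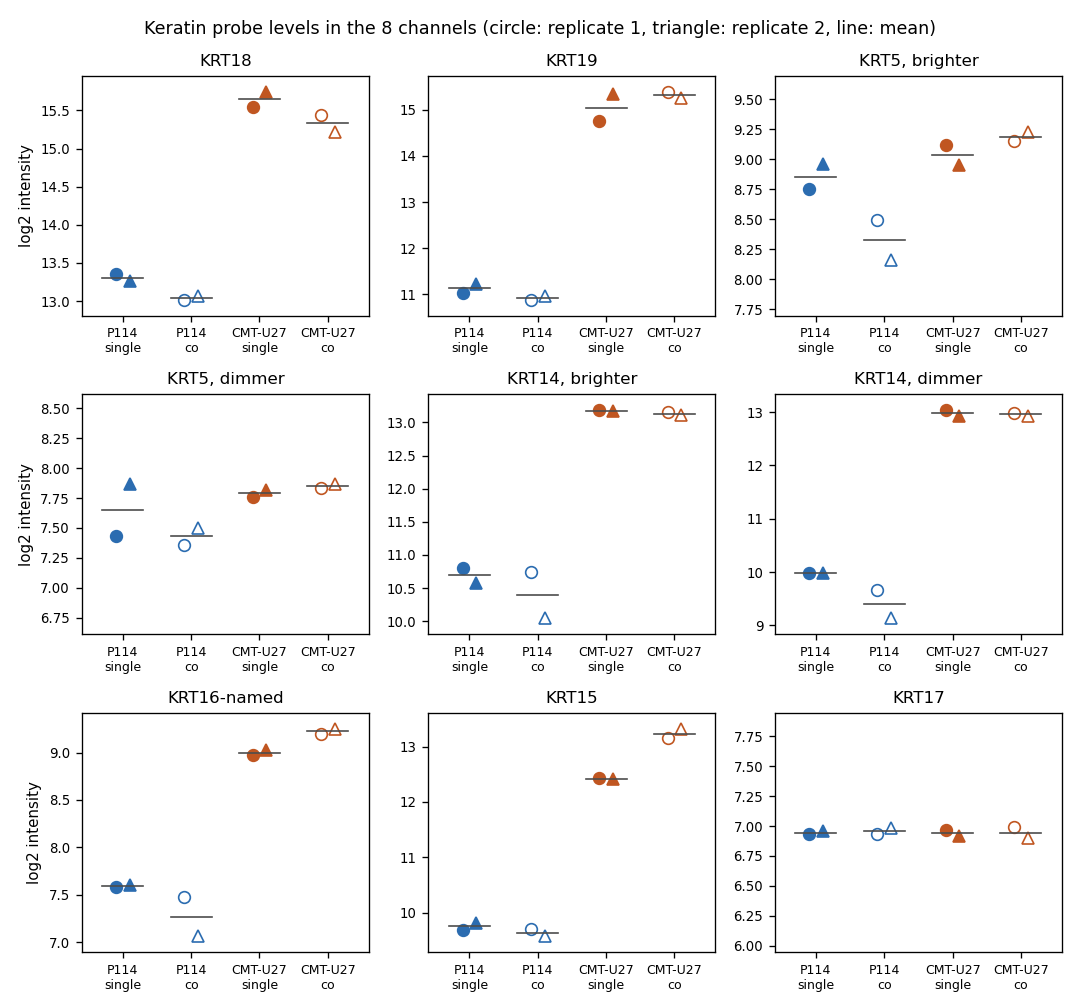
Log2 intensity (vertical axis, own scale in each panel) of the 9 keratin probes in P114 (blue) and CMT-U27 (orange), single culture (filled) and co-culture (open), with a circle for replicate 1, a triangle for replicate 2 and a line for their mean. P114 lies below CMT-U27 in both cultures for KRT18, KRT19, KRT14, KRT15 and the KRT16-named probe, overlaps with it for KRT5 in single culture, and KRT17 stays between 6.90 and 6.99.

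In each of these genes the order of the 4 groups was led by CMT-U27. For KRT19 the order from the top was CMT-U27 co-culture (15.31 ± 0.09, SD), CMT-U27 single culture (15.04 ± 0.40), P114 single culture (11.13 ± 0.14) and P114 co-culture (10.93 ± 0.04), and the cultures of CMT-U27 lay within their spread. For KRT18 it was CMT-U27 single culture (15.65 ± 0.14), CMT-U27 co-culture (15.33 ± 0.15), P114 single culture (13.30 ± 0.06) and P114 co-culture (13.04 ± 0.03). For KRT15 it was CMT-U27 co-culture (13.23 ± 0.12), CMT-U27 single culture (12.42 ± 0.02), P114 single culture (9.75 ± 0.10) and P114 co-culture (9.64 ± 0.10), and the cultures of P114 overlapped. For KRT14 the cultures of CMT-U27 stood at 13.17 ± 0.01 (single) and 13.13 ± 0.03 (co-culture), and P114 co-culture was lowest at 10.40 ± 0.49, with an overlap with P114 single culture by its brighter probe. For KRT5, CMT-U27 stood at 9.19 ± 0.06 in co-culture and 9.03 ± 0.12 in single culture, P114 single culture at 8.85 ± 0.14 and P114 co-culture lowest at 8.32 ± 0.24.

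The line difference was present within each dye and without each array. Within Cy3 alone and within Cy5 alone, where each line had 1 channel per culture and no test was possible, the luminal median in single culture was -2.91 and -3.34 and the basal median -2.60 and -2.35. With any 1 of the 4 arrays left out, a line had 1 array, so only the differences are given here. KRT19 then lay between -4.23 and -3.59, KRT15 between -2.72 and -2.61, KRT14 between -2.59 and -2.37 and KRT18 between -2.41 and -2.28. KRT5 lay between -0.23 and -0.13. The calls do depend on scaling between arrays. With loess alone and no Aquantile step, limma called 0 of 28692 probes between the lines in either culture. The median difference over all probes in single culture moved from -0.03 to -0.38 with that scaling. The 5 keratin differences in single culture were then -3.75 for KRT19, -2.67 for KRT15, -2.44 for KRT14, -2.13 for KRT18 and -0.38 for KRT5, with limma adjusted p-values from 0.253 to 0.942, so none passed.

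**Figure D2:**
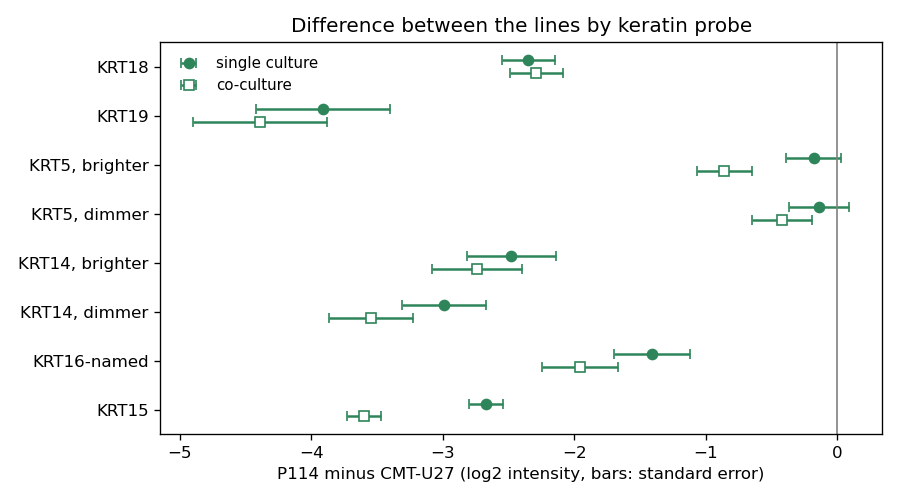
Difference between the lines, P114 minus CMT-U27, in log2 intensity (horizontal axis) for the 8 tested keratin probes in single culture (filled circles) and co-culture (open squares), with bars of 1 standard error. KRT18, KRT19, KRT14 and KRT15 lie between -4.39 and -2.29, and KRT5 lies nearest to 0.

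After loess normalization, co-culture with macrophages moved no keratin past the test. When arrays were median-centred instead, all 5 tested keratin genes were called higher in CMT-U27, as were 17025 of 28692 probes, and 0 of the 5 were called in P114. After loess, limma called 0 of 28692 probes (0%) in P114, in CMT-U27, in the mean of both lines and in the difference between the lines. At an unadjusted p under 0.05 there were 1758, 928, 1881 and 821 probes. The smallest adjusted p was 0.797 in P114 and 0.147 in CMT-U27. The keratin ratios are therefore given as values, as log2 of co-culture over single culture, with the direction taken from the dye label of each channel. Pearson's r between the replicate arrays was -0.149 for P114 and 0.053 for CMT-U27, taken across probes, which are no replicates.

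In P114 all 5 tested genes had a negative mean ratio, with a median of -0.30 over the basal and -0.23 over the luminal genes, beside 0.01 over all probes. By the brightest probe of each gene KRT5 had the lowest, with -0.26 on replicate 1 and -0.80 on replicate 2 (mean -0.53 ± 0.38, SD; limma adjusted p = 0.797). KRT14 stood at -0.07 and -0.53 by its brighter probe and at -0.32 and -0.84 by its dimmer probe, whose mean of -0.58 was below that of KRT5. The dimmer KRT5 probe had a mean of -0.22. The basal keratins were thus lower on replicate 2 than on replicate 1 by every KRT5 and KRT14 probe. KRT18 stood at -0.33 and -0.20 and KRT19 at -0.14 and -0.27, with the same sign on both arrays. KRT15 stood at 0.02 and -0.25. Without P114 replicate 2 the median over the 5 genes was -0.14, against -0.26 with both arrays.

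In CMT-U27 the keratins had ratios of both signs. KRT15 stood at 0.71 and 0.91 (mean 0.81 ± 0.14, SD, or 1.76-fold), with a limma adjusted p of 0.656. Both its arrays were positive, in opposite dyes. KRT18 was negative on both, at -0.12 and -0.52, and KRT14 lay near 0, at -0.03 and -0.05. KRT19 stood at 0.62 and -0.08, so its arrays disagreed in sign. KRT5 stood at 0.03 and 0.28. The median over the 5 genes was 0.16 with both arrays and 0.02 over all probes, and fell to -0.05 without CMT-U27 replicate 1 and to 0.03 without replicate 2.

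The difference between the lines in the response to co-culture was widest for KRT15, at 0.93 ± 0.09 (SE; limma adjusted p = 1), as CMT-U27 minus P114. KRT5 followed at 0.69 ± 0.11 (limma adjusted p = 1). KRT19, KRT14 and KRT18 stood at 0.48, 0.26 and -0.06. None of these differences passed after loess. With median centring all 5 passed, from 1.14 for KRT18 (limma adjusted p = 0.00864) to 2.04 for KRT15 (limma adjusted p = 0.00105), as did 43.4% of all probes.

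Scaling within arrays bears on the co-culture ratios. When arrays were median-centred and loess was not applied, the median over all probes moved to 0.68 in CMT-U27 and 0.16 in P114, and the keratin medians to 1.44 and 0.17. The 5 keratin genes in CMT-U27 then ran from 1.15 for KRT5 to 2.27 for KRT15, all above the 0.68 of all probes. That median covers probes of all intensities, and whether the keratins exceed probes of like intensity was not tested. The direction of KRT14 and KRT18 in CMT-U27, and of KRT14, KRT15, KRT18 and KRT19 in P114, flipped to positive under that scaling.

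**Figure D3:**
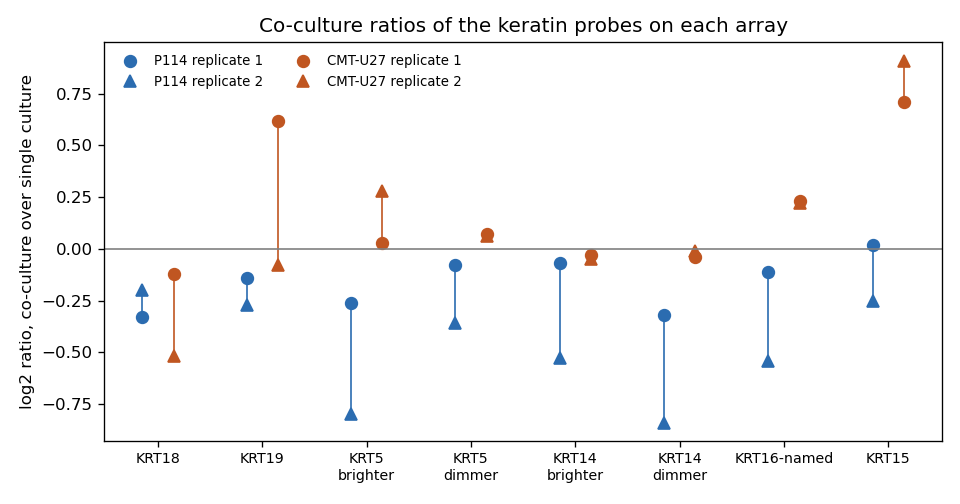
Log2 ratio of co-culture over single culture (vertical axis) for the 8 tested keratin probes, with 1 point per array (P114 blue, CMT-U27 orange, circle for replicate 1, triangle for replicate 2) and a line joining the arrays of a line. The P114 points lie at or below 0 other than KRT15 on replicate 1 at 0.02, and KRT15 in CMT-U27 is the highest pair, at 0.71 and 0.91.

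The array held other keratins as well, most of them dim. Of 32 other keratin symbols, 11 were tested, and in single culture 3 were called lower in P114 and 0 higher, with a median of -0.20. Of all tested probes, 8.23% were called lower and 6.97% higher. The 3 other keratins were KRT42, a type I keratin, at -3.49 (limma adjusted p = 0.00124), KRT13, a type I keratin of mucosal epithelia, at -2.78 (limma adjusted p = 0.000395) and the KRT16-named probe already given. In P114, KRT13 was well above background on replicate 1 alone, that is on 1 of 2 arrays. It thus passed the filter through CMT-U27 alone, and its call is a description. In CMT-U27 co-culture, KRT13 stood at 0.67 ± 0.06 (SD; limma adjusted p = 0.911) and KRT42 at 0.40 ± 0.11 (limma adjusted p = 1).

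Vimentin went the opposite way to the keratins. VIM, the filament gene of mesenchymal cells, was higher in P114 than in CMT-U27 by 5.79 ± 0.32 (SE; limma adjusted p = 0.000551) in single culture, or 55.5-fold, and by 6.33 ± 0.21 by its other probe (limma adjusted p = 0.000183). Of 7 tested genes for other intermediate filaments, VIM was the 1 called higher and LMNB1, a nuclear lamin, the 1 called lower, at -1.02 (limma adjusted p = 0.0194). Of all tested probes, 15.2% were called in either direction. In co-culture VIM stood at -0.07 ± 0.44 (SD) in P114 and 0.15 ± 0.10 in CMT-U27.

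Some genes that anchor keratins to the membrane also differed between the lines. Of 14 tested anchor genes, 4 were called lower in P114 in single culture and 2 higher, with a median of -0.14, beside 8.23% and 6.97% of all tested probes. The 4 encode desmosome proteins: DSG3, the desmoglein of basal layers, at -3.13 ± 0.21 (SE), DSP, the desmoplakin that holds keratin filaments, at -2.38 ± 0.22, and the desmocollins DSC3 at -2.12 ± 0.16 and DSC2 at -1.54 ± 0.25 (limma adjusted p from 0.000909 to 0.0142). The 2 higher encode hemidesmosome proteins: ITGA6, the integrin alpha-6 subunit, at 2.04 ± 0.14 (limma adjusted p = 0.000909), and COL17A1 at 0.76 ± 0.16 (limma adjusted p = 0.0312). COL17A1 was not well above background in CMT-U27 single culture and passed the filter through P114 alone. Its call is thus a description, and its bound is at least 1.70-fold. The other 8 did not pass, among them the desmosome genes JUP at -0.10 and PKP2 at -0.17 and the hemidesmosome genes PLEC at 1.59 and DST at 0.55, and whether the structures differ was not tested. In co-culture 5 were called lower in P114 and 1 higher, beside 8.82% and 6.62% of all tested probes. For co-culture over single culture 0 anchor genes were called in either line. In CMT-U27, 13 of 14 were positive with a median of 0.11, beside 0.02 over all probes. In P114, 11 of 14 were negative with a median of -0.07, beside 0.01 over all probes. The genes share the 2 arrays of a line, so these counts are descriptions and no test of a shift. The lowest p in CMT-U27 was that of DSG3 (0.36 ± 0.21, SD; limma adjusted p = 1).

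Regulators of basal and luminal state were called in 3 of 12 tested cases in single culture. Over all tested probes 15.2% were called, so this small count is not read as a result about the list. GATA3, a luminal transcription factor, was higher in P114 by 1.96 ± 0.28 (SE; limma adjusted p = 0.0097). SOX9, a progenitor factor, was lower by a difference of -1.76 ± 0.20 (limma adjusted p = 0.00433) and ELF3, an epithelial factor, by -0.81 ± 0.15 (limma adjusted p = 0.0227). GATA3 thus stood higher in the line whose luminal keratins were lower. TP63, the master regulator of basal cells, was well above background in 2 of 8 channels and was not tested. Of the 4 tested genes of keratinocyte differentiation 0 were called between the lines by their brightest probes. PI3, an elastase inhibitor gene, was called lower in P114 by its other probe, at -0.80 in single culture (limma adjusted p = 0.0283). It stood at 0.56 ± 0.02 (SD) in CMT-U27 co-culture by its brighter probe and at 1.79 by the other (limma adjusted p = 1 for the brighter).

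Epithelial markers differed between the lines in part. Of 9 tested, 4 were called lower in P114 in single culture and 1 higher, with a median of -1.52, beside 8.23% and 6.97% of all tested probes. EPCAM, used in the sort, stood at -2.66 ± 0.17 (SE; limma adjusted p = 0.000742) and was well above background in all 8 channels. ESRP1, an epithelial splicing regulator, stood at -2.31 ± 0.18 (limma adjusted p = 0.00143), and the claudin genes CLDN3 and CLDN4 at -1.66 and -1.52. CDH1 (-1.84), CLDN7 (-1.30), ERBB3 (-0.48) and RAB25 (-0.01) did not pass. MUC1, a luminal mucin, was higher at 1.73 ± 0.23 (limma adjusted p = 0.00738). CD44, also used in the sort, gave 0.11 and 1.45 by its probes, with 0 of 2 called (limma adjusted p of 0.849 and 0.11).

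Summed linear levels of the epithelial and fibroblast lists rested largely on 1 gene each. That of the 9 epithelial genes on the array ran from 7428 to 8294 in P114 and from 34210 to 41520 in CMT-U27. EPCAM, a marker of the sort, made up 61.2% to 66% of it in P114 and 81.3% to 85.5% in CMT-U27. Without EPCAM the sums ran from 2754 to 2914 and from 6014 to 7385. That of the 9 fibroblast genes ran from 21800 to 22940 in P114 and from 4339 to 5495 in CMT-U27, and COL1A2, a collagen I gene, made up 91.8% to 93.1% of it in P114. Without COL1A2 the sums ran from 1586 to 1787 in P114 and from 1482 to 1591 in CMT-U27. COL1A2 was higher in P114 by 2.79 ± 0.14 (SE; limma adjusted p = 0.0004), and the other 8 tested fibroblast genes were not called, with a list median of 0.17. These cells had been sorted for EpCAM. Of 5 tested myoepithelial genes, CALD1 was higher in P114 at 1.58 (limma adjusted p = 0.0449), beside 6.97% of all tested probes called higher. The part of other cells in the keratin difference was not tested, and in bulk RNA fewer cells of a type and less RNA per cell cannot be told apart.

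Macrophage RNA was followed by 16 marker genes, of which 4 were tested. In CMT-U27 their summed level was higher in co-culture than in single culture on both arrays, at 3406 against 3069 on replicate 1 and 3574 against 3352 on replicate 2. The number of markers well above background there was 5 in co-culture against 3 in single culture on replicate 1 and 5 against 4 on replicate 2. In P114 the sum was 3263 in co-culture against 3222 on replicate 1 and 2493 against 2603 on replicate 2, so the arrays disagreed. On P114 replicate 1 all 16 were well above background in both channels, and on replicate 2 it was 2 of 16 in both. In co-culture CD14, the macrophage co-receptor for endotoxin, stood at 0.04 in both lines, and CSF1R, the receptor for the macrophage growth factor, was well above background in 2 of 8 channels and was not tested. CD74, the class II invariant chain, stood at 0.49 ± 0.18 (SD) in CMT-U27 (limma adjusted p = 1) and at -1.72 between the lines (limma adjusted p = 0.0118). In P114, CD74 was well above background on 1 of 2 arrays in each culture. It thus passed the filter through CMT-U27 alone, and its call between the lines is a description. The CD74 ratio was the widest CMT-U27 ratio of the 4 tested markers, with 0.13 for CD68, 0.04 for CD14 and 0 for CD163, which was not well above background there. CD74 was well above background in CMT-U27 single culture too, at a mean of 8.92 against 9.41 in co-culture. Its part in the rise of the sum was not tested. The part of macrophage RNA in the keratin ratios was not tested.

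**Figure D4:**
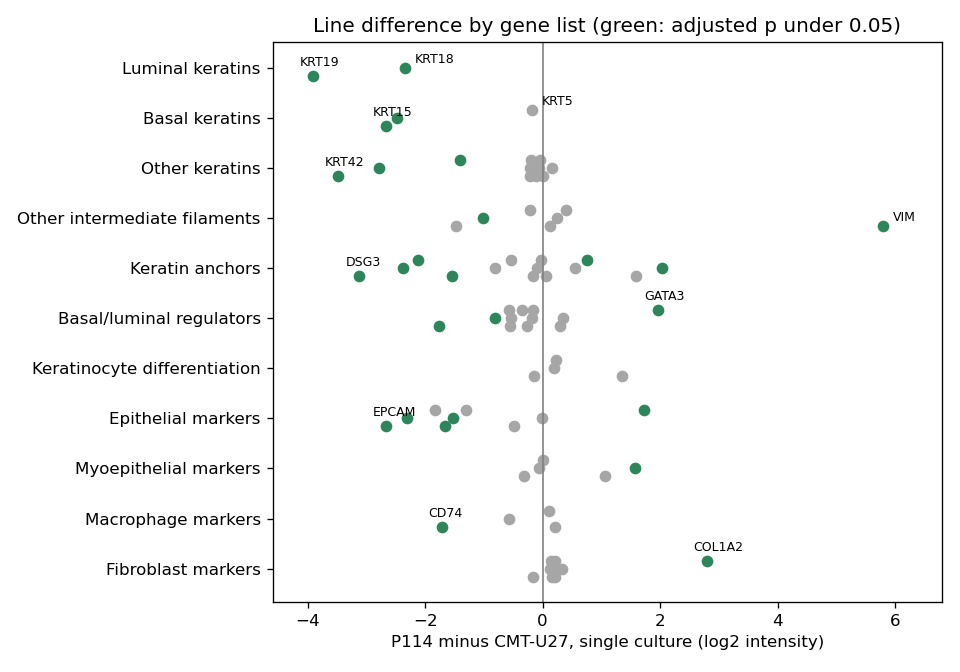
Difference between the lines in single culture, P114 minus CMT-U27, in log2 intensity (horizontal axis) for each tested gene of 11 lists (rows), with genes past an adjusted p of 0.05 in green and the others in grey. The luminal keratins lie at -3.91 and -2.35, KRT5 at -0.18, and VIM farthest right at 5.79.

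The genes whose levels over the 8 channels were most like those of each keratin were looked up among 9214 genes well above background in all channels. For KRT19 these were GRTP1 (Pearson r = 0.999) and CHRNE (0.998), for KRT15 FAM59A (0.999) and IFITM10 (0.998), and for KRT14 PPCDC and CGREF1 (both 0.997). For KRT18 they were TRMT112 (0.996) and COMMD10 (0.994), and for KRT5 TRPV4 (0.973) and COA6 (0.954). The channels share arrays and fall into 2 lines, so these values carry the line difference. GRTP1, for one, differed between the lines by -2.20 in single culture and COA6 by -0.18.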

How the data were processed

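Two-colour arrays of 4 hybridisations were analysed from the deposited scanner files, which hold linear intensity values per spot with local background; the authors' series value table repeats the deposited log10 ratio, red over green per the file headers, and was an alternative only. Deposited 0 or 1 flags served as filters. The submitters' processing notes name Agilent Feature Extraction 10.7.3.1, while the file headers give 10.10.1.1 as the version for grid placement. Mean intensities were corrected with normexp (offset 50), loess was applied within arrays, marked spots were left out, and ratios were turned to co-culture over single culture. A probe was tested if, in 1 or more of the line and culture groups, both arrays had it well above background (28692 probes). Limma 3.58.1 (R 4.3.3) fitted a coefficient per line and a dye term, with 1 residual degree of freedom; the lines were compared by a separate-channel fit after Aquantile, with Benjamini-Hochberg adjustment over all tested probes at 0.05. A gene is shown by its brightest tested probe unless said otherwise. Beside the members and fixed genes, up to 4 genes of each list with the smallest p could be named in each comparison. The keratins, lists and tests were chosen with earlier results of these data known, so their calls and medians are descriptions. The scripts were tested on simulated data. The number of arrays limits the precision. Figures used Python 3.11.15 and matplotlib 3.10.9.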

Additional observations from a re-analysis of the deposited data

How the results depend on the processing

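No paired analysis was possible because replicate numbers only name the arrays, in accession order, and tie no array of a line to one of the other. Counts of calls moved widely both between the lines and for co-culture. Between the lines, limma called 4361 probes in single culture and 4431 in co-culture, 2545 and 2517 from the scanner software's processed signals, 9385 and 9502 with no dye term, and 0 and 0 with loess but no Aquantile step, where the count of keratin genes called lower also fell from 4 to 0. With each array left out, which took the spot correlation from the fit of all arrays and assumed that a lone array varies like the others, the counts ran from 5596 to 17491 in single culture and from 5695 to 17060 in co-culture. The basal median was -2.67 over all tested probes of a gene, -2.60 within Cy3, -2.35 within Cy5, and -2.59 to -2.37 with an array left out. The KRT5 co-culture call between the lines ended with processed signals (adjusted p = 0.0537) and with no filter on dim probes (0.0862). For co-culture, where 0 probes were called, median centring gave 5 calls in P114, 17343 in CMT-U27, 16518 in the mean and 12448 in the difference, with keratin medians of 0.17 in P114 and 1.44 in CMT-U27 and with all 5 tested keratins called in CMT-U27 and in the difference. Without background correction 12 were called in CMT-U27 and 1 in the difference, and with the filter on all channels 1 in CMT-U27. With an array left out and no dye term, 0 to 64 were called in P114, 0 to 17 in CMT-U27, 0 to 61 in the mean and 0 to 61 in the difference, and the keratin median ran from -0.27 to -0.14 in P114 and from -0.05 to 0.16 in CMT-U27. Under median centring, ratios turned positive for KRT14 (0.10), KRT15 (0.23), KRT18 (0.17) and KRT19 (0.19) in P114 and for KRT14 (1.44) and KRT18 (1.31) in CMT-U27, and the KRT18 difference between the lines was 1.14. That difference was also positive without background correction (0.09), with the software's log ratio and the series value table (both 0.08), and, with an array left out, ran from -0.26 to 0.15, being 0.01 without P114 replicate 2. Likewise KRT15 in P114 ran from -0.25 to 0.02 and KRT19 in CMT-U27 from -0.08 to 0.62. The cause of these moves was not tested.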

Other observations

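Probes that the member rule left out matched other keratin transcripts or lay on the KRT5 and KRT19 sequences themselves. A contig that the files describe by similarity to human cytokeratin 8, the luminal type II partner of KRT18, was lower in P114 by a difference of -1.84 ± 0.21 (SE) in single culture (limma adjusted p = 0.00435), with levels of 14.02 and 14.27 in P114 against 15.96 and 16 in CMT-U27. In co-culture its ratios were -0.07 and -0.32 in P114 and -0.09 and -0.12 in CMT-U27, negative on all 4 arrays.

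A contig described by similarity to mouse keratin 14, on chromosome 9 from 21265490 to 21265549 and so outside the positions of the KRT14 probes, was not well above background on either P114 array and stood at 12.77 and 12.82 in CMT-U27 single culture. It was at least 58.6-fold higher in CMT-U27 in single culture and at least 79.3-fold in co-culture, the dim side being set per array to the higher of its own signal and the lowest signal well above background. It passed the filter through CMT-U27 alone, so no test result is given for the line difference. Its ratios in CMT-U27 were 0.34 and 0.52 (limma adjusted p = 1).

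A further transcript described as keratin 5, on chromosome 27 from 2594306 to 2594365, apart from the KRT5 probes, was lower in P114 by a difference of -3.89 ± 0.21 (SE; limma adjusted p = 0.000516), with 1 of 2 P114 arrays well above background. The filter was thus passed through CMT-U27 alone, and the call is a description. Of the unnamed probes within the KRT5 transcript itself, 1 gave -0.20 (limma adjusted p = 0.613) and 1 gave -0.68 (limma adjusted p = 0.0363) in single culture. The probe at -0.20 shares 52 of its 60 bases with the dimmer KRT5 probe, so these are not independent readings. The probe that is the exact reverse complement of the KRT19 probe was lower in P114 too, at -1.76 ± 0.17 (limma adjusted p = 0.00249), with levels of 7.53 and 7.68 against 9.37 and 9.36. Probe designs on both strands of KRT19 thus gave the same direction, and which strand each one reads was not tested.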
